A study of Mus musculus with 18 samples.

Results

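RNA collected with biotinylated *miR-92b* from whole cell lysates of Neuro2A cells, a mouse neuroblastoma line, was compared with RNA collected the same way with a biotinylated scrambled sequence (Scr). The comparison uses 6 of the 18 samples of the series, 3 with *miR-92b* and 3 with Scr, chosen by their labels. The other groups, 3 samples each, were whole cell lysate of untransfected cells (control) and nuclear lysate for all 3 treatments. The line is wild type in every group, 25 nM of mimic was transfected, and cells were lysed 48 h later. Neuro2A is 1 tumor line, and untransfected control differs from Scr by the transfection as well as by the mimic, which cannot be told apart. The labels do not say whether the 3 samples of a group were separate cultures, so each p-value measures the spread between samples as labeled. Unless stated otherwise, that spread and each SE were estimated within all 6 groups of the series together, 18 samples, and not from the 6 pulldown samples alone.

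A miRNA guides an Argonaute protein to messenger RNAs that pair with bases 2 to 8 of the miRNA, its seed, usually in the 3′ UTR. The bound messenger is then repressed through TNRC6 proteins and the CCR4-NOT and PAN deadenylases. In a pulldown with a biotin-tagged mimic, streptavidin beads hold the mimic and the RNA attached to it, so an RNA bound by *miR-92b* is searched for as one with more reads than with Scr. Members of the *miR-25* family share 1 seed and are known for roles in neural progenitors. Oligo-dT selection leaves the mature miRNA itself out of these libraries, so the mimic could not be checked in the reads.

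The mature sequences of the 6 family members with this seed were taken from RefSeq (GRCm38.p6), with the seed in capitals, because all pair with the same letters of a target.
mmu-miR-92b-3p: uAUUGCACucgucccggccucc
mmu-miR-92a-3p: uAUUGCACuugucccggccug
mmu-miR-25-3p: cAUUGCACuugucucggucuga
mmu-miR-32-5p: uAUUGCACauuacuaaguugca
mmu-miR-363-3p: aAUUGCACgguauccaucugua
mmu-miR-367-3p: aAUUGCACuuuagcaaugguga

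The 3 kinds of match were searched on the sense strand of GENCODE M21 transcripts (GRCm38). An 8mer is GTGCAATA, a 7mer-m8 is GTGCAAT without the final A, and a 7mer-A1 is TGCAATA without the first base. Of 21810 genes with a protein-coding 3′ UTR, 478 (2.19%) held an 8mer there and 2667 (12.2%) held any of the 3. The following 30-base stretches hold the matches of some of the named loci, with the match in capitals. The first 4 are from loci with more reads with *miR-92b* and the last from a locus with fewer. Matches of other named loci are not shown and lie at loci of both directions. They include an 8mer of *Sertad3*, which was higher, and an 8mer of *A330076H08Rik* and a 7mer-m8 of *Zcchc7*, which were lower. A match is a description of letters and not a binding site.
Pcmtd1, 3′ UTR, chr1:7170324-7170353, plus strand: acatattccgggcaacgtatgaGTGCAATA
1700020I14Rik, exon 3 of 3 of a lincRNA, chr2:119602043-119602072, plus strand: tttctaaacaaaaacgggatatGTGCAATA
Mis12, 3′ UTR, chr11:71026277-71026306, plus strand: tcagggtatgggatgacatataGTGCAATA
Rbfox2, 3′ UTR, chr15:77084100-77084129, minus strand: cccagttcatgaggcctggctatTGCAATA
Tmem184b, 3′ UTR, chr15:79362318-79362347, minus strand: caggcccagcccaccctacaccGTGCAATA

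The values are normalized read counts, in which each sample's reads are scaled by its size factor. The shallowest of the 6 samples had 4096874 reads on named loci and the deepest 22920038, a ratio of 5.59. Correlations across loci were 0.729 to 0.797 within *miR-92b*, 0.761 to 0.810 within Scr and 0.720 to 0.828 between the groups, and these ranges overlapped (a description over 15579 loci that share these libraries). *miR-92b* sample 3 stood apart. It was the highest of the 6 samples at 27.1% of loci and the lowest at 24.2%, and 4.51% of its reads lay on loci without a symbol, against 10.3% to 11.3% in the other 5. Cytosolic ribosomal protein loci took 5.99% of its reads, against 1.80% to 2.99%, and nuclear-retained noncoding RNAs took 0.544%, against 1.18% to 1.51%. Results are therefore also given without this sample, a choice made after the data were seen.

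The label of the cells was checked against sympathetic neuroblastoma markers. Of 17 markers, 12 were read in these samples, among them *Phox2a*, *Hand2*, *Isl1*, *Th* and *Dbh*, while *Ddc*, *Nefl* and *Nefm* were among those at 0 in all 6 samples and *Tubb3* matched no locus. Their summed normalized count was 5324 to 8892 with *miR-92b* and 5813 to 6303 with Scr. The summed count of 5 macrophage markers was 0 to 2.70 with *miR-92b* and 0 to 46.5 with Scr, with *Cd68* and *Adgre1* at 0 throughout. That of 5 fibroblast markers was 4.28 to 90.5 and 0 to 0.524, with *Col3a1* at 0, and that of 4 astrocyte markers was 21.6 to 75.7 and 0 to 47.1, with *Aqp4* and *Aldh1l1* at 0. The part of these few reads in any result was not tested.

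Across the 15579 loci with a mean normalized count of 10 or more, 1 locus had an adjusted p below 0.05 in limma, 0.00642% of them, and it was higher with *miR-92b*. The locus joins *Pcmtd1*, a relative of the enzyme *Pcmt1* that repairs damaged aspartyl residues in proteins, with the gene model *Gm38372* (chr1:7088920-7173628). Its normalized counts were 2188, 4905 and 1610 with *miR-92b* against 548, 427 and 629 with Scr (control 680, 483 and 439). All *miR-92b* samples lay above all others, and Scr overlapped control. The log2 fold change over Scr was 2.29 ± 0.28 (SE, n = 3 per group), a 4.89-fold difference (limma, adjusted p = 4.01e-04). edgeR gave an adjusted p of 2.93e-04 and DESeq2 5.43e-12. Without *miR-92b* sample 3 the log2 fold change was 2.63 (limma, adjusted p = 4.61e-06). Leaving out 1 sample gave 2 to 77 called loci: 77, 5 and 2 without *miR-92b* sample 1, 2 or 3, and 3, 13 and 4 without Scr sample 1, 2 or 3. *Pcmtd1* was among them each time, with a log2 fold change of 1.83 to 2.63. In a model of these 2 groups alone, which estimates the spread from 6 samples, the same fold change had an adjusted p of 0.956, and 0 loci passed in limma, with 456 at an unadjusted p below 0.05.

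The locus was also compared with control. Its log2 fold change of *miR-92b* over control was 2.30 ± 0.28 (SE; limma, adjusted p = 3.71e-04), while that of Scr over control was 0.01 ± 0.28. On the FPKM scale, which divides by transcript length, the levels were 89.8, 260 and 87.4 with *miR-92b* against 14.7, 13.8 and 18.8 with Scr. The normalized count per FPKM was 18.4 to 24.4 with *miR-92b*, 31.0 to 37.2 with Scr and 21.3 to 37.0 in control. *miR-92b* lay below Scr without overlap in this ratio, as it did at 441 of 9377 loci (4.70%) with a count of at least 20 in each of the 6 samples. The longest stretch of its longest transcript that paired without a gap to *miR-92b* was 10 letters. The 8mer above and the letters just before it make a stretch of this length, so it is not a separate feature. A length of at least 10 was met by 633 of 55341 genes (1.14%), a share not matched by transcript length. Of tested loci of 1 gene, 370 met it and 13509 did not. The 3 tested loci of the methyltransferase family include 2 others, neither with an unadjusted p below 0.05. *Pcmt1* read 472, 364 and 641 with *miR-92b* against 182, 596 and 552 with Scr (log2 fold change 0.29 ± 0.32, SE), and *Pcmtd2* read 162, 236 and 220 against 272, 176 and 244 (-0.16 ± 0.34, SE). Both overlapped.

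**Figure D1:**
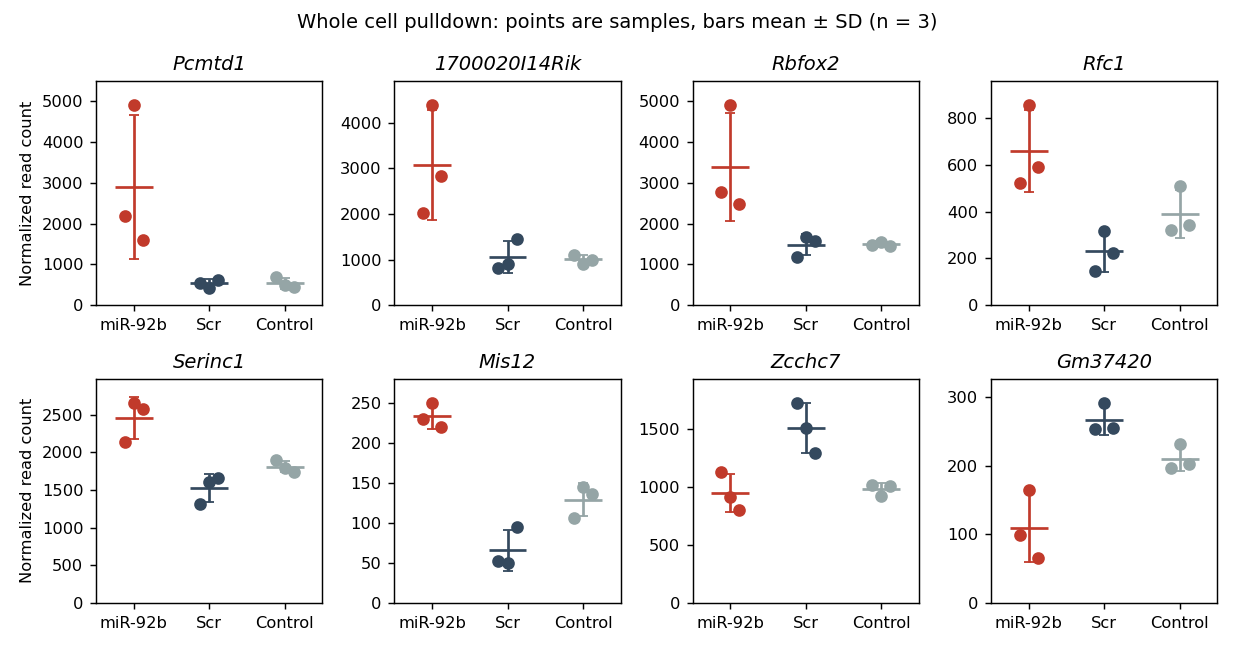
Normalized read counts (y axis, linear from 0) of 8 named loci in the 9 whole cell samples, by treatment on the x axis. Points are samples, horizontal lines the mean and error bars the SD (n = 3). The 3 *miR-92b* points of *Pcmtd1* lie at 1610 to 4905, above all Scr and control points.

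At an unadjusted p below 0.05 stood 1515 loci (9.72%), 614 higher with *miR-92b* (3.94%) and 901 lower (5.78%). The groups did not overlap at 1389 loci (8.92%), 673 higher (4.32%) and 716 lower (4.6%). edgeR called *Pcmtd1* alone, 0.00642%, with 1208 loci at an unadjusted p below 0.05. DESeq2 called 176 of the 15561 loci for which it gave an adjusted p (1.13%), 96 higher (0.617%) and 80 lower (0.514%). These calls lay mostly at low counts. The median of their mean normalized count was 15, 103 of the 176 had 0 reads in every sample of 1 group, and 35 had a mean of at least 50. Of the 176, 91 were also called without *miR-92b* sample 3, which is 51.7% of these calls and 54.2% of the 168 made without it.

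**Figure D2:**
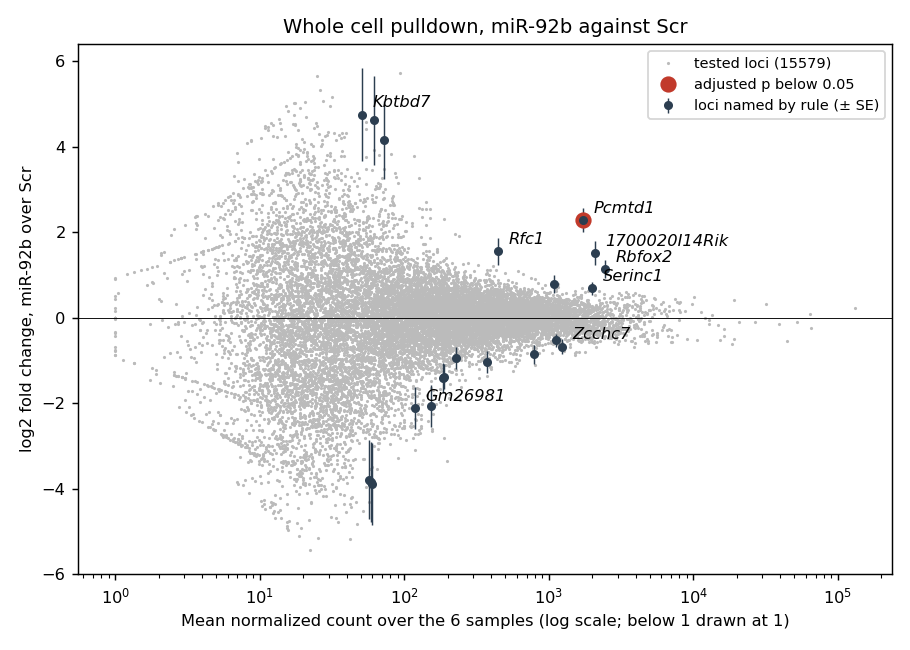
Log2 fold change, *miR-92b* over Scr (y axis), against the mean normalized count over the 6 samples (x axis, log scale) for the 15579 tested loci. Dark points with error bars (SE) are the loci named by rule, and the large point is *Pcmtd1*, at 2.29, the only locus with an adjusted p below 0.05 in limma.

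Among loci with a mean of at least 50 whose groups did not overlap, the next in order of p after *Pcmtd1* was *1700020I14Rik*, a long noncoding RNA (chr2:119594181-119608628). It read 2019, 4389 and 2827 with *miR-92b* against 808, 914 and 1455 with Scr (control 1110, 906 and 1000). The *miR-92b* samples lay above all others. The log2 fold change was 1.51 ± 0.28 (SE), with an adjusted p of 0.0727 in limma, 0.133 in edgeR and 3.68e-04 in DESeq2, so it passed in 1 of the 3 tools. Without *miR-92b* sample 3 it was 1.54, with an adjusted p of 0.0629 in limma and 0.0438 in edgeR. Its 8mer stands in exon 3, and 220 of 33531 genes without a protein-coding 3′ UTR (0.656%) held these letters in their longest transcript. That share was not matched by length or reads, and the longest transcript of *1700020I14Rik* has 8300 bases.

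*Rbfox2*, an RNA-binding regulator of alternative splicing (chr15:77078990-77307053), read 2772, 4906 and 2490 with *miR-92b* against 1189, 1680 and 1569 with Scr (control 1464, 1556 and 1458). Again no *miR-92b* value fell within the other groups. The log2 fold change was 1.14 ± 0.22 (SE), with an adjusted p of 0.0913 in limma, 0.140 in edgeR and 3.68e-04 in DESeq2. Without *miR-92b* sample 3 it was 1.33, and the locus then passed in limma (adjusted p = 0.0104) and in edgeR (adjusted p = 0.00372).

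*Rfc1*, the large subunit of the clamp loader replication factor C (chr5:65261850-65335670), read 524, 855 and 592 with *miR-92b* against 146, 319 and 224 with Scr. Control, at 322, 508 and 341, lay between the groups, with log2 fold changes of 0.75 for *miR-92b* and -0.80 for Scr over control. The log2 fold change over Scr was 1.55 ± 0.32 (SE; adjusted p = 0.138 in limma, 0.00365 in DESeq2). On the FPKM scale the *Rfc1* levels overlapped, at 16.3, 23.8 and 24.8 with *miR-92b* against 29.7, 9.69 and 19.1 with Scr, and the log2 fold change was 0.27 (limma, adjusted p = 0.914). *Serinc1*, a membrane protein named for a proposed role in bringing serine into lipids, read 2132, 2659 and 2580 with *miR-92b* against 1309, 1603 and 1655 with Scr (control 1892, 1796 and 1745). Its log2 fold change was 0.69 ± 0.16 (SE; adjusted p = 0.212 in limma, 0.00142 in DESeq2). It too had control between the groups.

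At 3 loci the Scr samples were near or at 0 in part. *1500017E21Rik* read 120, 111 and 145 with *miR-92b* against 5.26, 54.7 and 0 with Scr (control 116, 80.4 and 85.0), so *miR-92b* overlapped control. *Kbtbd7*, an adaptor of a ubiquitin ligase, read 76.5, 65.7 and 129 with *miR-92b* against 0, 33.4 and 0 with Scr (control 54.1, 26.8 and 24.2). The homeobox gene *Prox2* read 57.6, 129 and 143 with *miR-92b* against 0.877, 0 and 38.2 with Scr (control 29.4, 32.9 and 13.3). At the last 2 loci *miR-92b* lay above control too, and Scr overlapped control. Fold changes against such low values depend on the pseudocount, and limma's adjusted p was 0.191 to 0.216 for the 3 loci. *Lrrc59*, a membrane protein of the endoplasmic reticulum that binds ribosomes, was named by its DESeq2 call and read 1166, 1157 and 1806 against 824, 820 and 704 with Scr (log2 fold change 0.78 ± 0.21, SE; adjusted p = 0.0289 in DESeq2, 0.263 in limma).

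Of the loci that were lower with *miR-92b*, 0 passed in limma or edgeR, 901 having an unadjusted p below 0.05 in limma and DESeq2 calling 80. *Zcchc7*, a subunit of a nuclear complex that tags RNA for decay, read 1126, 917 and 797 with *miR-92b* against 1726, 1511 and 1296 with Scr. Control read 1018, 923 and 1006, within the range of *miR-92b* and below Scr. Its log2 fold change was -0.68 ± 0.17 (SE; adjusted p = 0.259 in limma, 0.0114 in DESeq2), and its 3′ UTR holds a 7mer-m8. *Morf4l2*, a chromatin protein, read 888, 880 and 962 against 1297, 1331 and 1308 with Scr (control 1335, 1342 and 1199). Its log2 fold change was -0.53 ± 0.16 (SE; adjusted p = 0.311 in limma, 0.0375 in DESeq2). Here Scr overlapped control and *miR-92b* lay below both.

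*Ccdc59* read 272, 296 and 168 with *miR-92b* against 339, 536 and 642 with Scr, with an adjusted p of 0.0313 in DESeq2. The locus that joins *A330076H08Rik* with small RNA genes of the *Mir344* cluster read 633, 663 and 395 against 1074, 839 and 1103, and *Gm17154* read 166, 156 and 142 against 352, 245 and 300. The groups did not overlap at these loci. DESeq2's adjusted p was 0.0407 for the *A330076H08Rik* locus and 0.0363 for *Gm17154*. The longest transcript of *A330076H08Rik*, one with a retained intron, holds an 8mer in exon 2. Of the 7 further loci named by p, 6 were predicted genes with Gm symbols and 1 a repair enzyme. In the annotation *Gm26981* is a lincRNA, *Gm37864* and *Gm43329* lie in introns on the sense strand of other genes, and *Gm6203*, like *Gm17154*, is a pseudogene, whose reads may be shared with its parent gene. *Fan1*, a nuclease for DNA crosslinks, read 29.7, 11.4 and 0 against 110, 86.1 and 116. *Gm37420* read 99.0, 164 and 65.0 against 253, 292 and 255, and *Gm26981* read 54.9, 44.3 and 21.7 against 353, 93.2 and 139. *Gm6203*, *Gm22718*, *Gm37864* and *Gm43329* were lowest in *miR-92b* sample 3, at 17.8, 65.0, 0 and 0. Limma's adjusted p was 0.191 to 0.259 for these 7 loci, and that of DESeq2 was 0.00276 to 0.0464.

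The loci with an 8mer in the 3′ UTR were then described as a class. The 294 tested loci of 1 gene with an 8mer had a median log2 fold change of 0.02, with 157 higher (53.4%), against 0.05 and 54.0% for 9048 loci without a match. The medians were -0.03 for 535 loci with a 7mer-m8 and -0.02 for 710 with a 7mer-A1, and -0.01 over all tested loci, of which 48.8% were higher. The medians of the whole classes differed by less than 0.1. In short, middle and long 3′ UTRs the 8mer medians were 0.03, 0.13 and -0.005, and those of loci without a match 0.11, 0.03 and 0.02. Of the 294 8mer loci, 14 were higher and 8 lower at an unadjusted p below 0.05, against 412 and 354 of the 9048 loci without a match. Groups did not overlap at 18 and 13 of the 8mer loci, against 468 and 347 of those without a match. Over all tested loci the shares were 3.94% and 5.78% by p, and 4.32% and 4.6% by overlap. All tested loci include those without a protein-coding 3′ UTR, which were lower as a class and are in neither seed class. For comparison, the 8mer classes of *let-7a* (392 loci) and *miR-9* (477 loci), which were not transfected, had medians of 0.03 and 0.02.

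**Figure D3:**
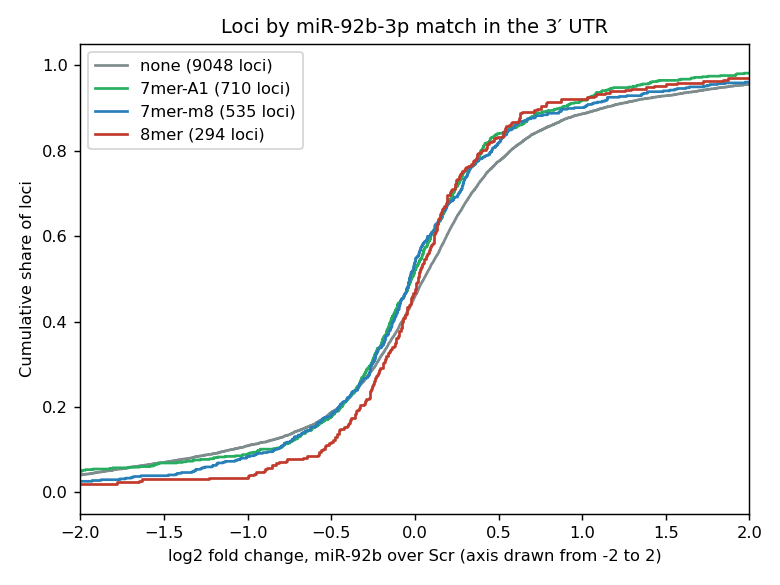
Cumulative share of loci (y axis) by log2 fold change, *miR-92b* over Scr (x axis, drawn from -2 to 2), for loci with an 8mer, 7mer-m8, 7mer-A1 or no match in the 3′ UTR. The 4 curves lie close together, with medians from -0.03 to 0.05.

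Single 8mer loci with groups that did not overlap went both ways. After *Pcmtd1*, the higher ones with the smallest p were *Sertad3* and *Mis12*. *Mis12*, a kinetochore protein, read 229, 250 and 219 with *miR-92b* against 52.6, 49.6 and 94.8 with Scr (control 106, 144 and 136). Its log2 fold change was 1.87 ± 0.53 (SE; adjusted p = 0.311 in limma, 0.0427 in DESeq2), with control between the groups. *Sertad3*, a transcriptional regulator, read 121, 351 and 69.5 with *miR-92b* against 0, 19.2 and 0 with Scr (control 35.3, 0 and 21), with an adjusted p of 0.284 in limma. The lower ones included *Tmem184b* and *Greb1l*. *Tmem184b* read 213, 264 and 141 against 376, 380 and 361 (log2 fold change -0.90 ± 0.27, SE), and *Greb1l* read 92.7, 166 and 18.5 against 239, 203 and 191. Limma's adjusted p was 0.311 and 0.419.

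The list of 30 reported targets of the *miR-25* family, of which 27 loci were tested, had 15 higher and a median of 0.07, against -0.01 over all loci. Only *Btg2* had an unadjusted p below 0.05. It is, an antiproliferative gene and stood at 64.8, 401 and 231 with *miR-92b* against 9.64, 169 and 130 with Scr, which overlapped (log2 fold change 1.56 ± 0.74, SE; limma, adjusted p = 0.502). The *Btg2* value was 0.29 without Scr sample 1, 2.30 without *miR-92b* sample 1 and 2.29 without Scr sample 2. The members with the most reads were *Fnip1*, a partner of folliculin, at 3140, 3450 and 2618 against 3123, 4143 and 3765, and the locus of *Cpeb2*, a translational regulator, at 3333, 3279 and 2616 against 3489, 3027 and 3489. Neither was higher with *miR-92b*.

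No gene of the machinery through which a miRNA acts passed the adjusted threshold in limma. The 7 Argonaute and TNRC6 loci had a median log2 fold change of 0.00 and none had an unadjusted p below 0.05. *Ago4* read 29.7, 34.3 and 0 with *miR-92b* against 42.1, 30.4 and 14.1 with Scr, and its log2 fold change of -1.41 turned to 0.27 without *miR-92b* sample 3. The other loci of the list ranged from -0.15 (the *Tnrc6a* locus) to 0.37 (*Ago3*). Of 9 miRNA processing genes, 4 were higher (median -0.04). Of 14 deadenylase genes, 7 were higher (median -0.02). *Pan2*, the catalytic subunit of PAN, had the smallest p among them, at 1107, 1162 and 670 against 711, 485 and 666 (log2 fold change 0.64 ± 0.22, SE; limma, adjusted p = 0.389). *Cnot1*, the scaffold of CCR4-NOT, read 2916, 2567 and 2604 against 3243, 2994 and 2868, and the locus of the nuclease *Cnot6* 2422, 1893 and 2562 against 2348, 2356 and 2454.

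Genes of protein folding in the endoplasmic reticulum were mostly higher. Of 37 tested loci on this list, 30 had a log2 fold change above 0 (81.1%), with a median of 0.33. The share was 48.8% of all loci, and 53.4% of loci with a protein-coding 3′ UTR, whose median was 0.04. None passed the adjusted threshold, and 5 were higher and 0 lower at an unadjusted p below 0.05 (of all tested loci, 3.94% and 5.78%). The chaperone *Hyou1* read 1425, 1452 and 2704 with *miR-92b* against 1128, 1297 and 1066 with Scr, without overlap (log2 fold change 0.61 ± 0.20, SE; limma, adjusted p = 0.361), but control, at 1678, 1556 and 1684, lay within the range of *miR-92b*. The lectin chaperone *Canx* read 2838, 3458 and 6350 against 2058, 2528 and 3405 (control 4581, 4129 and 3671). The locus of the chaperone *Hsp90b1* read 1966, 2035 and 3105 against 1851, 2357 and 1846 (control 2506, 2380 and 1955). At both loci *miR-92b* overlapped Scr and control. The medians per *miR-92b* sample, relative to the mean of Scr, were 0.13, 0.21 and 0.63. Without sample 3, 26 of 37 loci were higher, with a median of 0.17, against 52% of all loci. Without Scr sample 1 the median was 0.0917.

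In most other lists *miR-92b* sample 3 lay apart from samples 1 and 2, and what it contributes to their counts was measured by leaving it out. Of 81 cytosolic ribosomal protein loci, 75 were higher, 2 of them at an unadjusted p below 0.05 (of all tested loci, 3.94%), and the median was 0.36. The medians per sample, however, were -0.02, -0.35 and 1.51, and without sample 3 only 8 were higher, with a median of -0.17. *Rplp0*, a protein of the large subunit stalk, read 6369, 3677 and 21059 with *miR-92b* against 6496, 5655 and 9573 with Scr, and the locus of *Rps2* 6894, 3874 and 17064 against 6163, 4735 and 7208. *Rps18* had the smallest p of this list, at 377, 386 and 963 against 224, 291 and 466 (limma, adjusted p = 0.496). Of 12 elongation factors 9 were higher, with sample medians of 0.06, -0.32 and 1.31, and 6 were higher without sample 3. *Eef1a1* read 24424, 16356 and 75335 against 22404, 20959 and 32397, *Eef2* 15232, 11488 and 42643 against 14157, 12299 and 18288, and the mitochondrial factor *Tsfm* 81.9, 166 and 214 against 112, 36.5 and 135.

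Sample 3 was higher than the other two *miR-92b* samples also in the medians of initiation factors (0.81, with 26 of 41 loci higher), glycolysis (1.01, 17 of 21), mitochondrial ribosomal proteins (0.88, 48 of 78), complex I (0.98, 28 of 38), the proteasome (0.66, 22 of 36), snoRNA loci (0.82, 46 of 67), heat shock proteins (0.75, 15 of 21), cholesterol synthesis (0.65, 16 of 19), cyclins and mitosis (0.64, 18 of 27), the integrated stress response (0.40, 14 of 23), the interferon response (0.41, 8 of 12) and immediate early genes (0.33, 9 of 20). For mitochondrially encoded genes it was 1.47, with 4 of 4 loci higher. No member of these lists passed the adjusted threshold in limma. Without sample 3 their medians lay between -0.49, for the mitochondrially encoded genes, and 0.11, for the interferon response. The snoRNA list includes loci that join snoRNA genes with *Rps2*, *Rack1* or *Hspa8*, and the reads of such a locus cannot be split. The *Rps2* and *Hspa8* loci also count in the ribosomal protein and heat shock lists.

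In nuclear-retained RNAs, splicing genes and chromatin remodelers, which had negative medians, sample 3 was the lowest of the *miR-92b* samples. The 14 loci of nuclear-retained noncoding RNAs hold 9 listed symbols, so some symbols stand at more than 1 locus. Of the 14, 2 were higher, and 2 were lower at an unadjusted p below 0.05 (of all tested loci, 5.78%). The median was -0.44, and the sample medians were -0.10, -0.06 and -0.88. *Malat1*, a scaffold of nuclear speckles, read 47041, 42614 and 22763 with *miR-92b* against 50238, 47232 and 58387 with Scr, *Kcnq1ot1* 5457, 6117 and 2280 against 6423, 6485 and 6065, and the locus of *Neat1* 16521, 14046 and 7677 against 17026, 15032 and 20694. Splicing factors of the SR class and other genes with detained introns, 8 of 28 higher, had sample medians of 0.11, 0.09 and -0.72, and chromatin remodelers, 10 of 30 higher, 0.00, 0.10 and -0.32. Without sample 3 the medians of these 3 lists were -0.06, 0.07 and 0.08, with 7 of 14, 20 of 28 and 16 of 30 loci higher. Axon and vesicle genes (15 of 25 higher) and 329 zinc finger loci (157 higher) had sample medians of 0.06, 0.22 and -0.03, and of 0.11, 0.05 and -0.02.

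**Figure D4:**
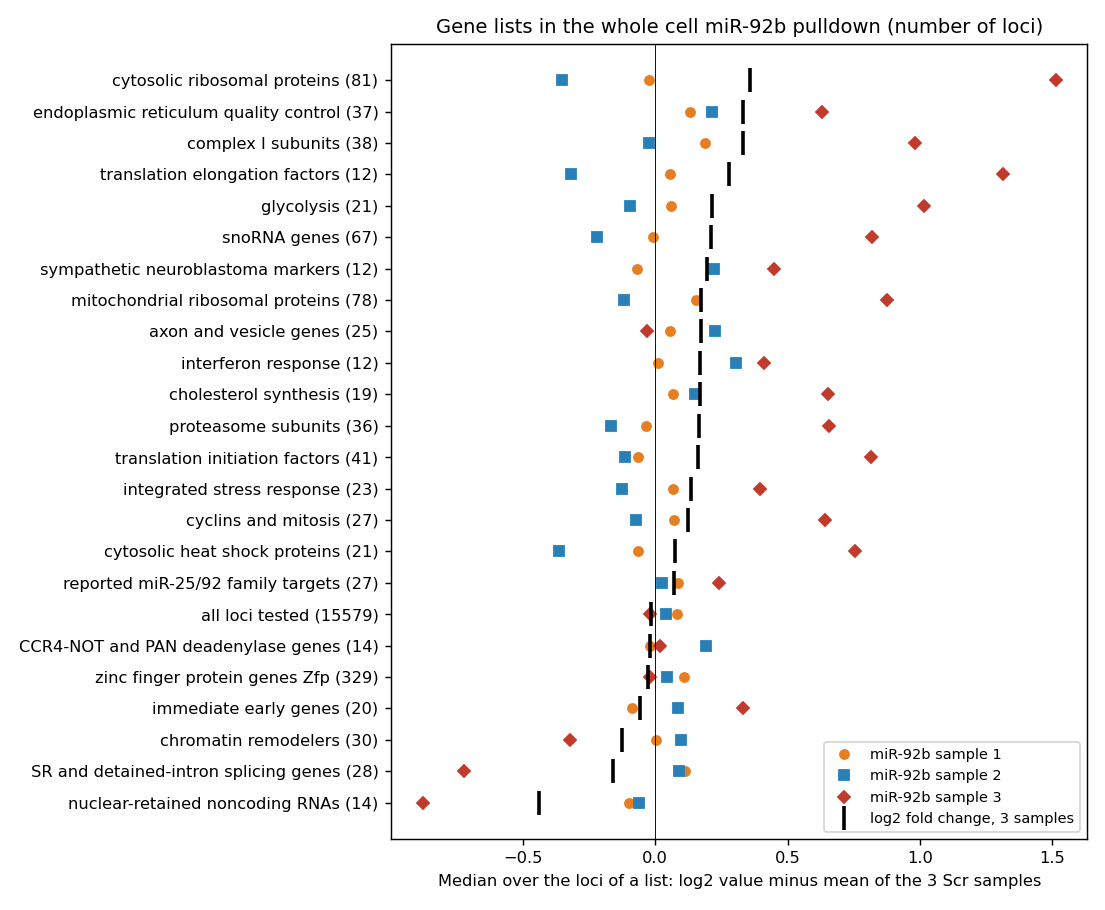
Median over the loci of each list of the log2 value minus the mean of the Scr samples (x axis), for each *miR-92b* sample (symbols) and for the fold change over the 3 samples (black bar), with the number of loci in parentheses. *miR-92b* sample 3 lies at 1.51 for cytosolic ribosomal proteins and at -0.88 for nuclear-retained RNAs, away from samples 1 and 2.

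Of the neuroblastoma markers tested, 8 of 12 were higher, with a median of 0.20. *Isl1*, a homeobox gene of sympathetic neurons, was lower without overlap, at 545, 483 and 372 with *miR-92b* against 742, 742 and 754 with Scr (control 674, 628 and 762), a log2 fold change of -0.69 ± 0.20 (SE; limma, adjusted p = 0.311). *Hand2*, a regulator of these neurons that holds a 7mer-m8, read 1090, 1612 and 1238 against 1040, 1142 and 860, and *Uchl1*, a ubiquitin hydrolase of neurons, 941, 1117 and 2556 against 1022, 1040 and 1311. Both overlapped.

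The effect of *miR-92b* over Scr in whole cell lysate was compared with that in nuclear lysate by the difference of the 2 log2 fold changes in the same model. Of 15579 loci, 1 passed, 0.00642%, and it was *Pcmtd1*. In nuclear lysate it read 660, 584 and 688 with *miR-92b* against 772, 617 and 777 with Scr, a log2 fold change of -0.16 ± 0.28 (SE), so the effect differed by 2.45 ± 0.40 (SE; limma, adjusted p = 0.0376). This call was lost when 1 sample was left out, in 8 of 12 cases: whole cell *miR-92b* sample 1, Scr sample 1 or 2, any nuclear *miR-92b* sample, and nuclear Scr sample 2 or 3. It was also lost, with 0 loci called in limma, with a pseudocount of 0.5, a mean of at least 50, no filter, samples scaled to 1 median or the sample number as a replicate block. Of the loci with a more positive effect in whole cell lysate, the next in order of p were *Fam76a* and *1700020I14Rik*, whose effects differed by 2.13 ± 0.48 and 1.63 ± 0.39 (SE; limma, adjusted p = 0.683 for both). *Fam76a*, with a 7mer-m8, read 367, 634 and 728 against 204, 244 and 266 in whole cell lysate and 72.4, 57.6 and 74.6 against 108, 137 and 141 in nuclear lysate. In the other direction stood *Tmem200a*, at 57.6, 31.4 and 26.8 against 152, 181 and 90.4 in whole cell lysate (difference -3.19 ± 0.72, SE), and 2 loci near 0, the pseudogene *D130007C19Rik* and the antisense gene *Gm28529*. *D130007C19Rik* was at 0 in all 3 whole cell *miR-92b* samples and at 75.4, 19.2 and 13.4 with Scr, and *Gm28529* at 13.5, 0 and 0 against 57.9, 81.0 and 50.3.

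**Figure D5:**
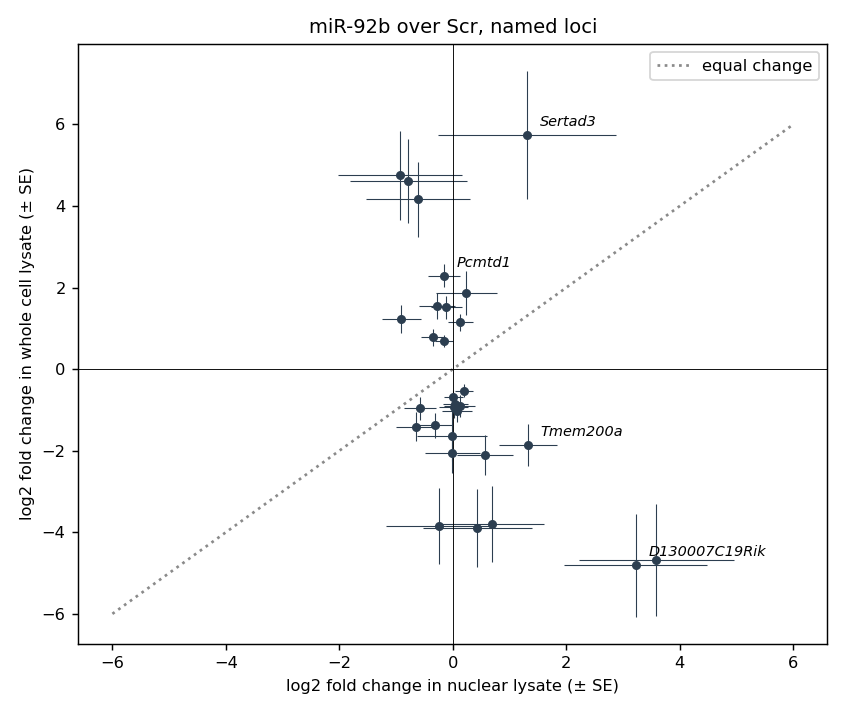
Log2 fold change, *miR-92b* over Scr, in whole cell lysate (y axis) against nuclear lysate (x axis) for the loci named by size of change, by an 8mer or by the difference between lysates. Error bars are SE, and the dotted line marks equal change. *Pcmtd1* lies at 2.29 in whole cell and at -0.16 in nuclear lysate, and values of loci near 0, such as *D130007C19Rik*, depend on the pseudocount.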

How the data were processed

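The 6 whole cell pulldown samples were analysed. The authors trimmed reads with Trimmomatic 0.30 (bcl2fastq 2.17), aligned them with TopHat2 to GRCm38 (mm10), and assembled and quantified loci with Cufflinks. They deposited normalized counts (a signal: reads divided by 1 size factor per sample) and FPKM values. Their deposited comparison tables, with fold changes and p-values, were not used. All 635205 counts above 0 were whole multiples of 1 read (100%, within 0.02 reads), so reads were recovered for edgeR 4.0.16 and DESeq2 1.42.0.

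Of 52179 loci with a symbol among 168136, 15579 reached an average of 10 in the 18 samples and entered limma 3.58.1 (variance trend, log2(normalized count + 1), 1 model of 6 groups, two-sided, Benjamini-Hochberg, threshold 0.05). Of these, 1197 join more than 1 symbol and cannot be split, and a locus's coordinates span the assembled region, which other loci may share. Tests were checked on simulated counts, in which DESeq2 called more unchanged loci than limma or edgeR did. It also recovered more of the changed loci at each simulated fold change. At the smaller fold change every tool, limma included, missed more changed loci than it recovered.

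Members, lists and tests were chosen with earlier results of these data known. Loci were named by rule: every locus past the threshold; the 8 smallest p per direction among loci with a mean of at least 50, no overlap and a constant sign with each sample left out; 5 DESeq2 calls per direction; 3 loci with an 8mer and 3 by difference between lysates; and, per list, the 2 members with the most reads and that with the smallest p. Members are named for 8 of 31 lists, picked after their values were seen. *Pcmtd2* was also named after their values were seen. *miR-124* was not analysed here, and some items that the rules name are not reported here.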

Additional observations from a re-analysis of the deposited data

Results flagged for a closer look

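The effect of *miR-92b* at the *Pcmtd1* locus differed between whole cell and nuclear lysate by 2.45 on the log2 scale (limma interaction contrast, adjusted p = 0.0376). All 3 whole cell *miR-92b* samples lay above the Scr samples, and the nuclear samples overlapped. Leaving out 1 of 12 samples at a time gave 0 to 5 calls. *Pcmtd1* was not among them without whole cell *miR-92b* sample 1, Scr sample 1 or Scr sample 2, without any 1 of the nuclear *miR-92b* samples, or without nuclear Scr sample 2 or 3. Groups of 3 samples were not tested for outlying values.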

How the results depend on the processing

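The count of 1 called locus was 2 with a pseudocount of 8, with FPKM values, with quantile normalization, with arrayWeights and with the replicate block, 3 with a mean of at least 1 and without a filter, 0 in the model of 2 groups and 176 with DESeq2. Leaving out 1 sample gave 2 to 77 calls, with 7 higher and 70 lower without *miR-92b* sample 1. In fits added after the data were seen, without *miR-92b* sample 3, edgeR called 3 loci and DESeq2 168. *Pcmtd1* passed in each of these fits except the model of 2 groups. The difference between lysates had 0 calls with a pseudocount of 0.5, a mean of at least 50, no filter, samples scaled to 1 median and the replicate block, 40 with DESeq2, and 0 to 5 with 1 sample left out. The sample numbers did not pair the samples: correlations of deviations between same-numbered *miR-92b* and Scr samples were -0.001, 0.026 and 0.033.

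Of the values of named loci under the alternatives, the Argonaute and TNRC6 loci and *Pcmtd2* left aside, 886 kept direction and side of the threshold, 56 newly passed and 1 (*Pcmtd1*, 2 groups) no longer passed. Log2 fold changes of uncalled loci changed sign at 8 of these loci, and that of *Ago4* was 0.27 without *miR-92b* sample 3 and 0.02 with FPKM values. With arrayWeights they were -0.0410 (*Eef1a1*), -0.0093 (*Pcmt1*), -0.21 (*Rplp0*) and -0.0635 (*Uchl1*). Without *miR-92b* sample 3, DESeq2 and edgeR gave -0.32 and -0.32 (*Eef1a1*), -0.17 and -0.17 (*Eef2*), -0.0160 and -0.0232 (*Hsp90b1*), -0.0921 and -0.10 (*Pcmt1*), -0.53 and -0.53 (*Rplp0*), -0.17 and -0.17 (*Rps2*) and -0.14 and -0.14 (*Uchl1*). In limma with 1 sample left out, values ran from -0.16 to 0.0625 (*Cnot6*), -0.31 to 0.79 (*Eef1a1*), -0.15 to 0.79 (*Eef2*), -0.0031 to 0.33 (*Hsp90b1*), -0.26 to 0.59 (*Pcmt1*), -0.54 to 0.71 (*Rplp0*), -0.20 to 0.87 (*Rps2*) and -0.12 to 0.60 (*Uchl1*).

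With 1 sample left out, list medians ran from -0.13 to 0.27 (Argonaute and TNRC6), -0.0278 to 0.12 (deadenylases), 0.0931 to 2.89 (astrocyte markers, 1 locus, 0.99 with a pseudocount of 8), -0.11 to 0.20 (immediate early), 0.0159 to 0.50 (interferon), -0.0741 to 0.13 (reported targets) and -0.0674 to 0.0393 (zinc finger). Seed class medians ran from -0.0451 to 0.0671 (8mer) and -0.0440 to 0.0176 (7mer-m8, -0.0469 with samples scaled to 1 median). In bins of 3′ UTR length they were 0.13 (8mer, middle), -0.0162 (7mer-m8, middle) and 0.23 (7mer-A1, short). The cause was not tested. What depth allows was not tested by count level.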

Other observations

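Loci without a protein-coding 3′ UTR, mostly noncoding genes and gene models, were lower as a class. Of 3924 such loci tested, 1389 (35.4%) had a log2 fold change above 0 and the median was -0.37, against 53.4% and 0.04 for 11655 loci with a protein-coding 3′ UTR. At an unadjusted p below 0.05, 425 of the 3924 were lower and 100 higher, against 476 and 514 of the 11655. Over all tested loci the shares were 5.78% lower and 3.94% higher. The split was made after the data were seen and has no test. The medians per *miR-92b* sample, relative to the mean of Scr, were 0.22, 0.11 and -1.40. Without sample 3 the median was 0.09 and 2102 of the 3924 loci were higher.

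Of the DESeq2 calls, 35 averaged 50 normalized counts or more, 15 of them higher and 20 lower. Loci with a mean of at least 50, groups that did not overlap and a constant sign with each sample left out were also searched. Of these, 19 of 441 higher loci with a 3′ UTR held an 8mer (4.31%) and so did 15 of 330 lower ones (4.55%). The share was 3.29% of all tested loci at that mean with a 3′ UTR.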
